A study of Mus musculus with 6 samples.

Results

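Mitochondrial ribosomal protein genes are the nuclear genes whose products, made in the cytosol and imported, build the ribosome of the mitochondrion. They were taken here as all gene symbols that start with Mrpl or Mrps followed by a digit, leaving out symbols that contain -ps. That rule found 78 of the 21829 genes in the deposited table, 49 named for the large subunit (Mrpl) and 29 for the small subunit (Mrps), and no symbol had to be left out. Genes that averaged 1 FPKM or more were tested, 12539 in all, and all 78 members were among them. FPKM counts fragments relative to the length of the transcript and the size of the library, so levels of different genes are compared per length.

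The mitochondrial ribosome translates the few proteins encoded by mitochondrial DNA, all of them core subunits of the respiratory chain and ATP synthase. Its RNA comes from the mitochondrial genome, whereas each of its proteins is encoded in the nucleus. The large subunit joins amino acids and feeds the new chain to the inner membrane, and the small subunit binds the messenger and reads its codons. In white adipocytes, mitochondria supply intermediates and energy for fatty acid synthesis and storage.

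The RNA came from the epididymal fat pad, a visceral white adipose depot, of male C57BL/6J mice at 20 weeks of age on a normal diet. There were 3 libraries labelled ZFP251 KO, named KO 1 to KO 3 here, and 3 from wild-type littermates, WT 1 to WT 3. The comparison addresses the role in fat of ZFP251, a zinc finger protein. The labels do not give the allele, and none says that a library stands for 1 mouse. The p-values thus rest on the spread among 6 libraries, part of which may be technical. In bulk tissue, fewer cells of a type and less RNA per cell cannot be told apart.

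The targeted gene went against the labels: Zfp251 stood at 6.48, 5.86 and 6.48 FPKM in the KO-labelled libraries, against 3.73, 3.56 and 2.95 FPKM in WT. The groups did not overlap, the log2 difference was 0.72 (SE 0.12), limma's adjusted p was 0.223 (0.0409 without WT 1), and an exact permutation test, two-sided, gave p = 0.1, the smallest that 3 libraries against 3 allow. Every direction given here follows the labels. The FPKM of all genes summed to between 426966 and 439354 in the KO-labelled libraries, and to 472120, 468499 and 637902 in WT 1, WT 2 and WT 3. Adipocyte markers, among them Adipoq and Plin1, were all tested (20 of 20), which fits the labelled tissue, and their FPKM summed to between 50909 and 60109 in the KO-labelled libraries and to between 67559 and 109805 in WT. Markers of multiciliated cells (16 of 18 tested) summed to between 126 and 220 FPKM in the KO-labelled libraries and to between 38.8 and 95.3 FPKM in WT, and epithelial markers (8 of 10 tested) to between 98.6 and 201 FPKM in the KO-labelled libraries and to between 8.24 and 85.2 FPKM in WT. The ciliary gene Pifo was listed at 0 in WT 2 and WT 3. Depth is unknown, because the table holds no counts.

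No mitochondrial ribosomal protein gene differed between the groups at an adjusted p under 0.05, and neither did any other gene (0% of the 12539 tested; smallest adjusted p 0.223, limma). Without WT 1, 482 genes passed that threshold and no member did. At an unadjusted p under 0.05, limma gave 8 members (10.3%), 4 of each subunit and all lower in the KO-labelled libraries: Mrpl45, Mrpl17, Mrpl9, Mrpl46, Mrps10, Mrps23, Mrps5 and Mrps18a. The same threshold gave 13.6% of all tested genes, 4.43% lower and 9.13% higher. The count of members was 2 without KO 1 (6.91% of all tested genes) and without KO 2 (7.03%), 3 without KO 3 (13.5%), 13 without WT 1 (14.7%), 32 without WT 2 (17.5%) and 12 without WT 3 (13.7%). All of these members were lower in the KO-labelled libraries, save 2 of the 12 without WT 3. The shares of all tested genes count both directions. In the same order, 691 of 866, 694 of 882, 1211 of 1689, 1183 of 1842, 1144 of 2195 and 1005 of 1716 such genes were higher. The difference, KO minus WT on the log2(FPKM + 1) scale, was below 0 for 77 of the 78 members, against 59.2% of all tested genes. It had a median of -0.35 over the large subunit (range -0.58 to -0.08) and of -0.39 over the small subunit (range -0.65 to 0.12), beside -0.05 over all tested genes. The single member with a difference above 0 was Mrps6, a small subunit protein related to bacterial S6.

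Much of this difference rested on 1 library. WT 3 was the highest of the 6 libraries in 77 of 78 members, against 40.3% of all tested genes; in the exception, Mrps18b, WT 1 was highest. In WT 3 the members stood at a median of 1.80 times the mean of the other 5 libraries for the large subunit and 1.84 times for the small, and 18 members were at 2 times or more. Measured as the median deviation from the mean of the 5 libraries other than WT 3, the members lay at -0.02, -0.08 and 0.00 (log2) in the KO-labelled libraries, against 0.12, 0.01 and 0.82 in WT. WT 2 thus lay close to the KO-labelled libraries and WT 1 above all of them.

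**Figure D1:**
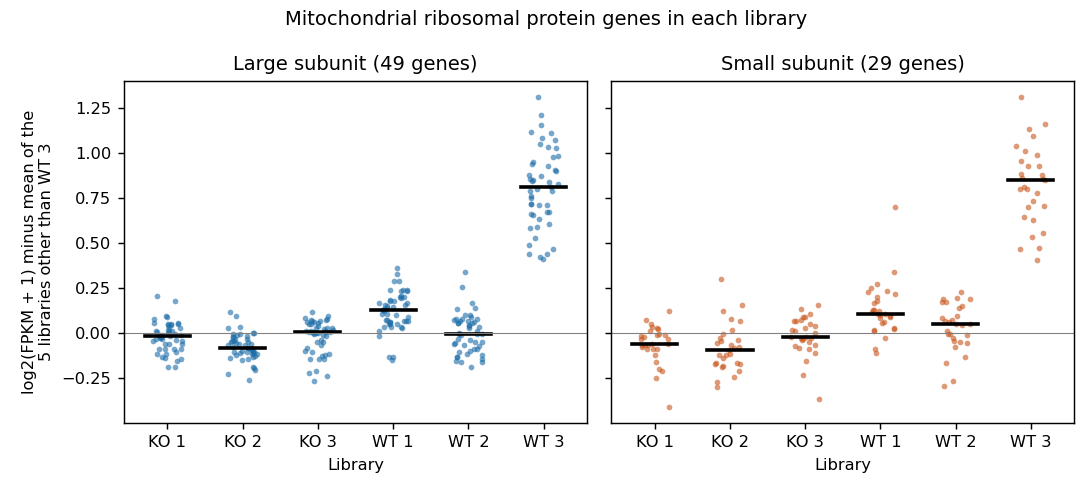
Each point is 1 mitochondrial ribosomal protein gene in 1 library, plotted as its log2(FPKM + 1) minus its mean over the 5 libraries other than WT 3, for the large subunit (left, 49 genes) and the small subunit (right, 29 genes). Black bars are medians. WT 3 stands apart in both panels, with medians of 0.81 and 0.85, while the other 5 libraries have medians between -0.09 and 0.13.

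Without WT 3 the difference shrank to a median of -0.10 over the large subunit and -0.11 over the small subunit, beside -0.03 over all tested genes. It was below 0 for 67 members, 40 of 49 large and 27 of 29 small, against 58% of all tested genes. At an unadjusted p under 0.05, 10 members (12.8%) were lower in the KO-labelled libraries and 2 (2.56%) were higher, against 5.67% and 8.01% of all tested genes (limma), and at an adjusted p under 0.05 there was no member and no other gene. Set against each WT library in turn, the mean of the KO-labelled libraries was lower than WT 1 in 71 members (median -0.17; 91%, against 52.4% of all tested genes), lower than WT 2 in 50 members (median -0.07; 64.1%, against 57.7% of all tested genes) and lower than WT 3 in all 78 (median -0.86; 100%, against 56.6%).

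In 30 members (38.5%) every KO-labelled library lay below every WT library, against 12.2% of all tested genes. They were 21 of the large subunit (42.9%) and 9 of the small (31%). The groups separated the other way in no member, against 10.1% of all tested genes. With WT 3 above every KO-labelled library in each member, that could not occur. Leaving out a library cannot end a separation, but it can add others. Among the members it could add none with the KO-labelled libraries lower, because WT 3 lay above all of those in each member. Without WT 3 the same 30 members therefore had to separate in that direction, and no further one could. The share of all tested genes was 17.9%. In the other direction, 4 members then separated, namely Mrpl23, Mrpl54, Mrpl58 and Mrps6 (5.13%, against 14.1% of all tested genes).

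**Figure D2:**
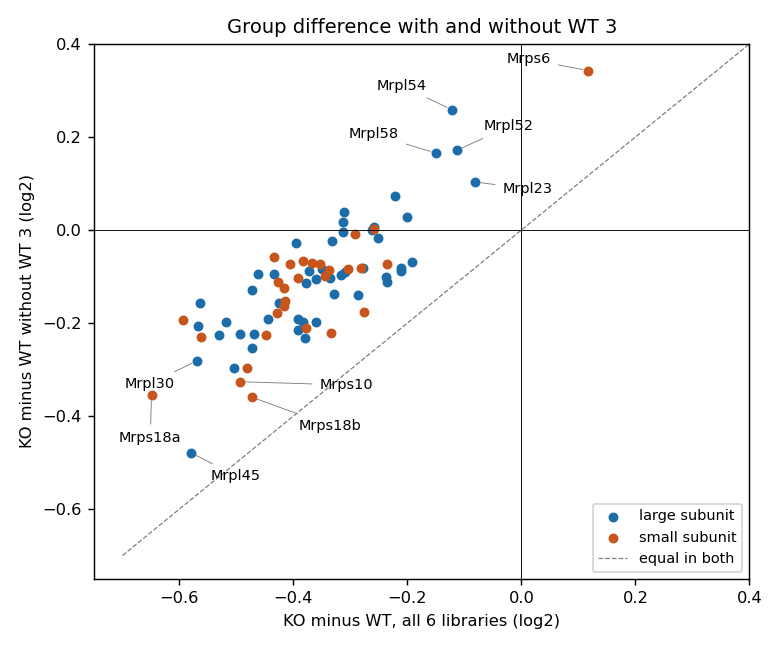
KO minus WT (log2 of FPKM + 1) of each member with all 6 libraries (horizontal) and without WT 3 (vertical); the dashed line marks equal values. All 78 points lie above the line. With all libraries 1 point, Mrps6, is right of 0, and without WT 3 11 points are above 0, led by Mrps6 and Mrpl54.

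The excess in WT 3 varied with gene length. Among all tested genes with a transcript under 700 nt, WT 3 exceeded the mean of the other libraries by a median of 0.83 (log2), and among those of 4000 nt or more it fell below that mean, with a median of -0.18. The members have short transcripts, with a median of 1253 nt against 2842 nt over all tested genes, and short coding sequences, with a median of 582 nt against 1365 nt. Across the 49 large subunit genes the excess in WT 3 fell with coding length (Pearson's r = -0.748, Spearman's rho = -0.727), and across the 29 small subunit genes the same values were -0.382 and -0.370. With transcript length the values were weaker, at -0.290 and -0.374 across the large and -0.112 and -0.198 across the small subunit genes. Over all 12539 tested genes they were not weaker, at -0.325 and -0.448 with transcript length and -0.312 and -0.410 with coding length. Genes of 1 library share its depth and processing and are not replicates, so these correlations only describe the libraries. The 7 members with transcripts of 4000 nt or more had a median excess of 0.80, while all genes of that length had -0.18. Their coding sequences ran from 513 to 1296 nt, beside the medians of 582 nt over all members and 1365 nt over all tested genes. In coding classes from 400, 600 and 900 nt up to 1500 nt, all tested genes had a median excess of 0.40, 0.27 and 0.15. The members in these classes had 0.86, 0.79 and 0.64. After a trend on transcript length was removed from each library, the difference between the groups had medians of -0.32 and -0.36 over the large and small subunits, beside -0.09 over all tested genes, and 23 members had an unadjusted p under 0.05 in limma, all lower (29.5%, against 9.08% of all tested genes). With coding length in its place the medians were -0.28 and -0.36, and 21 members had such a p, all lower (26.9%, against 8.02%). Both fits kept WT 3, and in neither did a member or any other gene pass an adjusted p under 0.05 (limma). Adipocyte markers were also highest in WT 3 in sum, and endothelial markers lowest there (330 FPKM, against 472 to 655 FPKM in the other libraries). Their part in the result was not tested.

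**Figure D3:**
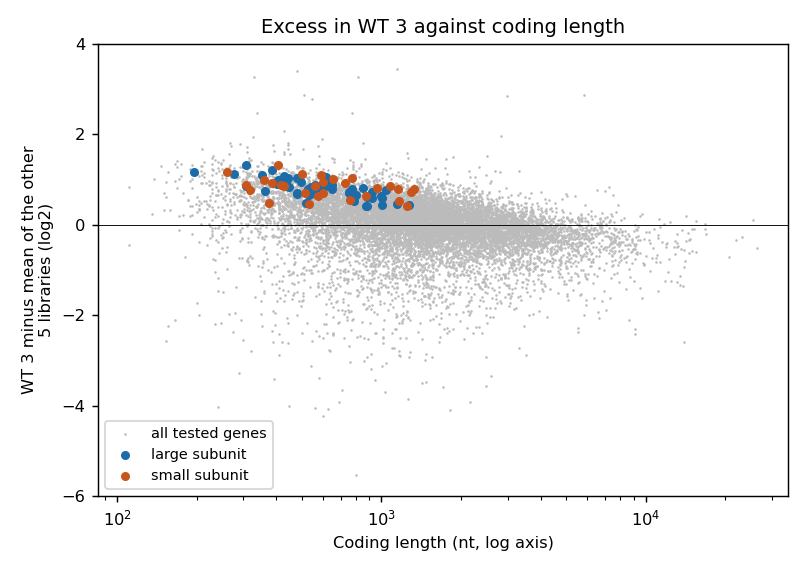
Excess of WT 3 over the mean of the other 5 libraries (log2 of FPKM + 1, vertical) against coding length (nt, log axis) for all 12539 tested genes (grey), large subunit genes (blue) and small subunit genes (orange). All 78 members lie above 0, between 0.41 and 1.31, and the shorter ones tend to lie higher.

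The members span a range of levels. Those with the highest means were Mrpl20, Mrpl33 and Mrpl30 in the large subunit and Mrps6, Mrps21 and Mrps34 in the small, and the lowest were Mrpl19, Mrps25 and Mrpl47. Mrpl20, which binds the ribosomal RNA of the large subunit, had 89.6, 92.3 and 101 FPKM in the KO-labelled libraries, against 112, 89.5 and 174 FPKM in WT. Mrpl33, the shortest member in coding length (195 nt), had 76.1, 74.0 and 82.5 FPKM, against 89.2, 76.8 and 179 FPKM in WT. WT 2 lay just below the lowest of the KO-labelled libraries in Mrpl20 and among them in Mrpl33, and WT 3 was far above all others in both.

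Start-site windows are shown for the 3 members whose values set them apart: Mrpl45, the member with the smallest p, Mrps6, the member with a difference above 0, and Mrps18b, the member in which WT 3 was not highest. Each runs 5′ to 3′ from 250 bases before to 50 bases after the RefSeq start on GRCm38.p6. Capitals mark matches, on either strand, to the letters bound by NRF1, a regulator of nuclear genes for mitochondria (GCGC, any base, then TGCGC), by ETS factors such as GABP (CCGGAAG) or by YY1 (AAGATGGC).
Mrpl45, chr11:97315466-97315765, plus strand: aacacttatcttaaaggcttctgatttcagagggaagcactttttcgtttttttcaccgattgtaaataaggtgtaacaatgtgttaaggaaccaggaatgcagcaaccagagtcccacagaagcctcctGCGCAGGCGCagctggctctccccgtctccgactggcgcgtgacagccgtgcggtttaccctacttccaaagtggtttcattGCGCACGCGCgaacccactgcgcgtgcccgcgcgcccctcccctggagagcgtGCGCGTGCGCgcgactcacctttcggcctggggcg
Mrps6, chr16:92058086-92058385, plus strand: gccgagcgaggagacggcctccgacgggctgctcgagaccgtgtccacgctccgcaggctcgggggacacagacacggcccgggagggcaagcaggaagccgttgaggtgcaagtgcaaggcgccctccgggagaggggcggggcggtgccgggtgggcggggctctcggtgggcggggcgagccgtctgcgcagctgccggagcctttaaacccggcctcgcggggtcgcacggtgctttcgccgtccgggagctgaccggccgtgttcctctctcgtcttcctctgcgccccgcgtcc
Mrps18b, chr17:35916391-35916690, minus strand: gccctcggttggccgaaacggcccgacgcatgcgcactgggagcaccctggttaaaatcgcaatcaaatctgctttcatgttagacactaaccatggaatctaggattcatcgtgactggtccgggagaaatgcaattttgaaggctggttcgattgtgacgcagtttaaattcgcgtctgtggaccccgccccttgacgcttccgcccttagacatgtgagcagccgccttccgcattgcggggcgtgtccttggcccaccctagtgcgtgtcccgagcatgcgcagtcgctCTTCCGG
The Mrpl45 window held 3 NRF1 matches, the Mrps18b window held 1 ETS match within its last bases, and the Mrps6 window held none of the 3 motifs. No match shown overlaps a match to another of these motifs.

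Windows were matched by symbol for 69 of the 78 members, 75 windows in all. Of these, 17.3% held the NRF1 letters, against 9.63% of the windows of all tested genes and 4.6% of all windows in the RefSeq table. The ETS letters were in 34.7% (16.8% of tested genes' windows, 8.86% of all) and the YY1 letters in 16% (4.28% and 2.75%). By subunit, NRF1 letters were in 20.8% of large and 11.1% of small subunit windows, and ETS letters in 31.2% of large and 40.7% of small. The CCAAT letters were in 40% of the members' windows, beside 36.9% of those of tested genes, and TATAAA in 6.67%, beside 7.25%. Matches to these letters, searched on both strands, are a description and not binding sites.

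Among large subunit genes, Mrpl45 (ENSMUSG00000018882, chr11:97315716-97329920, plus strand of GRCm38) had the smallest p. Its product anchors the ribosome to the inner membrane, where the new chains are inserted. It had 11.8, 12.5 and 11.2 FPKM in the KO-labelled libraries, against 16.2, 17.5 and 21.0 FPKM in WT (11.8 ± 0.649 and 18.2 ± 2.47 FPKM; SD, n = 3 each). The groups were well apart, and WT 3 was only moderately above the other WT libraries. The log2 difference was -0.58 (SE 0.12; limma unadjusted p 0.00231, adjusted p 0.223), and without WT 3 it was -0.48, the lowest of all members.

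Mrpl30 and Mrpl17, both proteins with bacterial counterparts of the same number, showed a smaller gap. Mrpl30 had 67.4, 70.0 and 68.3 FPKM in the KO-labelled libraries, against 87.8, 79.5 and 153 FPKM in WT. Mrpl17 had 66.8, 69.8 and 68.0 FPKM, against 90.9, 77.6 and 130 FPKM in WT. In both genes the KO-labelled libraries were close together and below every WT library, and WT 3 stood far above WT 1 and WT 2. The difference was -0.57 for Mrpl30 and -0.50 for Mrpl17, and without WT 3 it was -0.28 and -0.30 (limma adjusted p 0.375 and 0.322 with WT 3, and 0.349 for both without).

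Mrpl9, Mrpl21 and Mrpl46 also separated without overlap. Mrpl9, which has a bacterial counterpart on the surface of the large subunit, had 27.1, 27.6 and 28.5 FPKM in the KO-labelled libraries, against 32.3, 32.4 and 47.3 FPKM in WT, and WT 1 and WT 2 lay close together just above the KO-labelled libraries. Mrpl21 differed by -0.47, and by -0.22 without WT 3. Mrpl46, which has no bacterial counterpart, differed by -0.47, and by -0.25 without WT 3; the small subunit gene Mrps11 starts 412 nt away on the other strand.

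Other large subunit genes did not separate. Mrpl12, part of the stalk that recruits translation factors, averaged 36.7 ± 3.62 FPKM in the KO-labelled libraries and 56.2 ± 24.4 FPKM in WT (SD, n = 3 each). WT 2, at 35.5 FPKM, lay inside the range of the KO-labelled libraries, and the difference, -0.52, was -0.20 without WT 3 (limma adjusted p 0.480 and 0.644). Mrpl11, at the base of the stalk, and Mrpl41 had differences of -0.22 and -0.31 with WT 3, and of 0.073 and 0.017 without it.

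Mrpl54 was chosen after its values were seen, as were Mrpl52, Mrpl58 and Mrpl23. It had 54.0, 46.1 and 50.6 FPKM in the KO-labelled libraries, against 41.9, 41.6 and 93.3 FPKM in WT. The KO-labelled libraries stood above WT 1 and WT 2 and far below WT 3, so the difference was -0.12 with WT 3 and 0.26 without it (limma unadjusted p 0.0284, adjusted p 0.349 without WT 3). Mrpl58, a peptidyl-tRNA hydrolase that has become part of the large subunit, had the same order, at 23.1, 24.0 and 23.4 FPKM in the KO-labelled libraries, against 20.3, 21.3 and 41.1 FPKM in WT. Mrpl23, beside the exit tunnel, varied little among the KO-labelled libraries, at 14.0 ± 0.0846 FPKM (SD, n = 3), against 15.2 ± 3.87 FPKM (SD, n = 3) in WT.

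Mrps6 (ENSMUSG00000039680, chr16:92058270-92112227, plus strand of GRCm38) had 72.9, 74.5 and 73.5 FPKM in the KO-labelled libraries, against 61.7, 54.2 and 93.2 FPKM in WT. The KO-labelled libraries lay close together, above WT 1 and WT 2 and below WT 3. The difference was 0.12 with WT 3 (SE 0.20; limma adjusted p 0.809), 0.34 without WT 3 (SE 0.08; unadjusted p 0.00636, adjusted p 0.349) and -0.04 without WT 2. Its neighbour Slc5a3, a myo-inositol transporter gene that lies within the span of Mrps6 on the same strand (chr16:92058322-92087473), lay on the same side: 7.35, 7.70 and 7.94 FPKM in the KO-labelled libraries, against 5.99, 5.21 and 3.79 FPKM in WT. The groups of Slc5a3 did not overlap, the log2 difference was 0.55 (SE 0.16) and limma's adjusted p was 0.223; it was chosen after its values were seen. How fragments in the shared stretch were divided is not given in the sources used here, so the levels of these 2 genes are uncertain.

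The other 28 small subunit genes had a difference below 0. Mrps10, in the head of the small subunit, had 17.8, 18.1 and 20.2 FPKM in the KO-labelled libraries, against 26.25, 21.3 and 34.0 FPKM in WT, a difference of -0.49 (SE 0.17; limma adjusted p 0.290). Mrps23, a protein with no bacterial counterpart, had 29.8, 28.6 and 29.4 FPKM, against 33.4, 35.3 and 43.6 FPKM in WT. Both genes separated without overlap, and Mrps23 had one of the smaller excesses in WT 3, at 1.39 times the other libraries. Mrps5, by the channel through which the messenger enters, differed by -0.48 and by -0.30 without WT 3, and Mrps24, also by that channel, by -0.56 and by -0.23 without WT 3.

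Mrps18a, Mrps18b and Mrps18c are 3 paralogs related to bacterial S18. Mrps18a (ENSMUSG00000023967, chr17:46110986-46128910, plus strand of GRCm38), whose product sits in the large subunit despite its name, had 27.2, 26.5 and 32.3 FPKM in the KO-labelled libraries, against 37.8, 35.8 and 68.6 FPKM in WT. The groups did not overlap, and the difference of -0.65 (SE 0.25; limma adjusted p 0.328) was the lowest of all members, and was -0.36 without WT 3. Mrps18b (ENSMUSG00000024436, chr17:35910379-35916389, minus strand) had 11.2, 13.4 and 17.1 FPKM in the KO-labelled libraries, against 25.4, 12.5 and 22.9 FPKM in WT. WT 2 lay among the KO-labelled libraries, so the groups overlapped, and the difference was -0.47 (SE 0.28). Mrps18b also followed the other members least, with a Pearson's r of 0.629 with the members' mean over the 6 libraries, where the median member had 0.973. Mrps18c had 31.6, 34.9 and 29.6 FPKM in the KO-labelled libraries, against 36.4, 28.4 and 58.7 FPKM in WT, and without WT 3 its difference was -0.01. The differences between the 3 paralogs were not tested.

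**Figure D4:**
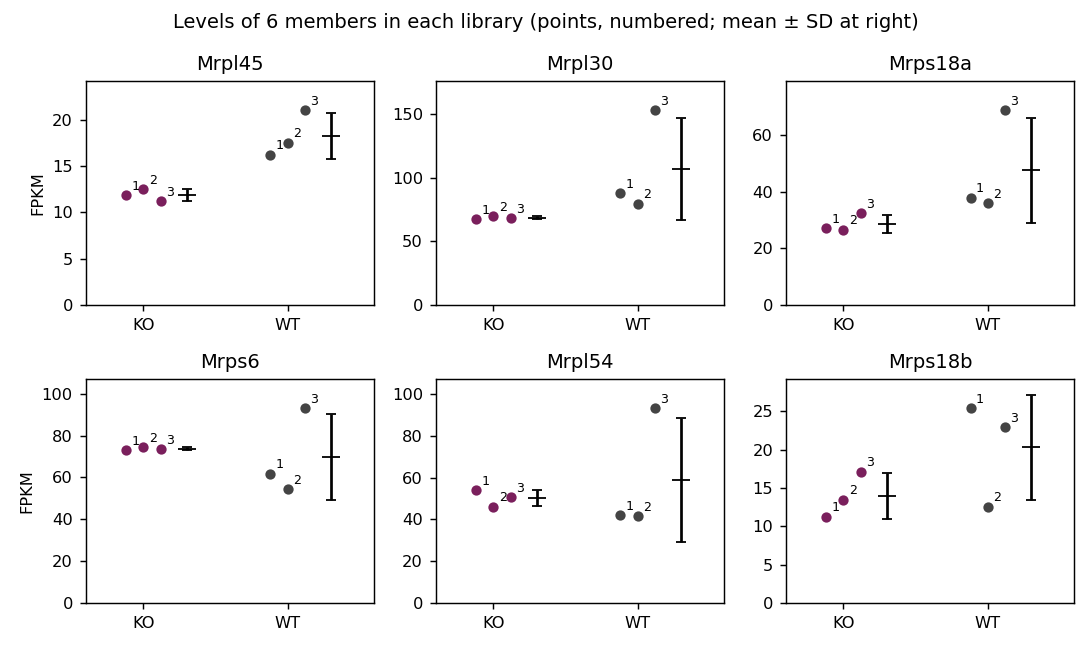
FPKM of 6 members in each library (points, numbered 1 to 3 within a group), with the mean and SD of the group (n = 3) to the right of its points; each panel's axis starts at 0. Mrpl45, Mrpl30 and Mrps18a show every KO-labelled library below every WT library, Mrps6 and Mrpl54 show KO-labelled libraries between WT 3 and the other WT libraries, and in Mrps18b WT 2 lies among those labelled KO.

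Mrps12, at the decoding centre, had 38.0, 32.4 and 38.8 FPKM in the KO-labelled libraries, against 37.8, 38.7 and 69.3 FPKM in WT, and the groups overlapped. Mrps36, whose product is a subunit of the 2-oxoglutarate dehydrogenase complex rather than of the ribosome, had 10.2, 10.5 and 11.3 FPKM, against 12.04, 11.9 and 21.4 FPKM in WT, without overlap. Mrps30, found in the large subunit of the assembled ribosome, differed by -0.45 and by -0.23 without WT 3. With Mrps18a and Mrps30 counted in the large subunit and Mrps36 left out, a grouping chosen after the values were seen, the medians of the difference were -0.36 over 51 large and -0.38 over 26 small subunit genes, and -0.10 over each without WT 3.

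Large and small subunit genes kept close to the same proportion in every library. The summed FPKM of the large subunit was 2.22, 2.16 and 2.16 times that of the small subunit in the KO-labelled libraries, against 2.13 times in WT 2, 2.16 times in WT 3 and, in WT 1, a ratio inside the range of the KO-labelled libraries. In WT 3, where both sums were highest (2783 and 1290 FPKM, against 1425 to 1656 and 660 to 753 FPKM in the other libraries), the ratio thus equalled that of KO 2 and KO 3 to 3 digits. The mean log2 level of large minus small subunit genes was 0.37, 0.33 and 0.32 in the KO-labelled libraries, against 0.32, 0.30 and 0.31 in WT. The groups did not overlap, but the nearest libraries, KO 3 at 0.319 and WT 1 at 0.315, were almost level. By medians in place of means, which jump between genes of different level, it was 0.50, 0.46 and 0.44 in the KO-labelled libraries, against 0.21, 0.32 and 0.69 in WT, where WT 3 was above and WT 1 and WT 2 below the KO-labelled libraries. All members together took 0.505%, 0.486% and 0.502% of the library's FPKM in the KO-labelled libraries, against 0.510%, 0.465% and 0.638% in WT.

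Many members share a start region with another gene. An opposite-strand protein-coding gene starts within 1000 nt of 33 of the 78 members (42.3%; 24 large and 9 small), against 15.9% of all tested genes. Of these partners, 28 were tested and are no members themselves. Their difference had a median of -0.03, beside -0.34 for the members with such a partner and -0.05 over all tested genes. WT 3 was highest in 12 of the 28 partners, against 40.3% of all tested genes. The lengths of the partners were not compared. Mrpl10 and Lrrc46, whose starts are 153 nt apart, are an example chosen after their values were seen: Lrrc46 had 3.79, 4.54 and 1.77 FPKM in the KO-labelled libraries, against 2.70, 0.061 and 0.083 FPKM in WT, whereas Mrpl10 had 39.7, 39.9 and 38.0 FPKM, against 46.2, 40.5 and 59.2 FPKM in WT. Lrrc46 was thus lowest in WT 2 and WT 3, the libraries with the lowest sums of ciliary markers, and Mrpl10 was highest in WT 3. The libraries were made with a stranded kit, but whether counting used the strand is not given in the sources used here, so values of overlapping genes, 26 members among them, are uncertain.

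With all 6 libraries, other genes of mitochondrial protein synthesis lay on the same side. Of all tested genes, 59.2% had a difference below 0 (median -0.05), and 58% without WT 3 (median -0.03). The 5 ribosomal subunits that carry other names (Dap3, Ptcd3, Chchd1, Aurkaip1 and Gadd45gip1) were all below WT, with a median of -0.36. All 5 were also below without WT 3, with a median of -0.11. Ptcd3, a small subunit protein with RNA-binding repeats, had 9.84, 10.8 and 9.18 FPKM in the KO-labelled libraries, against 12.1, 11.7 and 18.0 FPKM in WT. Of 25 factors for ribosome assembly and RNA modification, 23 had a difference below 0 (median -0.21), and 15 without WT 3 (median -0.03). The 13 translation factors were all below 0 (median -0.19), but only 7 were without WT 3 (median -0.04). Of 20 mitochondrial aminoacyl-tRNA synthetases and related enzymes, 18 were below 0 (median -0.20), and 15 without WT 3 (median -0.08). Of 13 genes for mitochondrial DNA expression, 10 were below 0 (median -0.25), and 7 without WT 3 (median -0.09). None of these genes passed an adjusted p under 0.05 (limma), as in the background of 0%.

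Some of the genes with the smallest p in these lists follow. Mtif3, a mitochondrial translation initiation factor, had 7.65, 7.15 and 8.54 FPKM in the KO-labelled libraries, against 9.36, 10.9 and 15.2 FPKM in WT. Gatb, a subunit of the enzyme that forms glutaminyl-tRNA in mitochondria, had 5.31, 4.54 and 6.13 FPKM, against 8.25, 6.96 and 10.7 FPKM in WT, a difference of -0.60 (limma adjusted p 0.223) and of -0.45 without WT 3. In both genes the groups did not overlap, as also in Trub2, a mitochondrial pseudouridine synthase, and in Lrpprc, which stabilises mitochondrial messengers. Tfam, which packages and transcribes mitochondrial DNA, overlapped between the groups, at 10.8, 13.5 and 11.9 FPKM in the KO-labelled libraries and at 16.4, 12.1 and 19.6 FPKM in WT.

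Regulators of mitochondrial biogenesis did not share the pattern of WT 3. Their 9 genes had a median difference of -0.0011, and of -0.11 without WT 3, and a median excess in WT 3 of -0.06. Their transcripts were longer than the members', with a median of 3656 nt. All tested genes of 2500 to under 4000 nt had a median excess of only 0.04. A part of length in this contrast was not tested. Nrf1, whose letters were searched in the start-site windows, had 7.03, 8.13 and 7.16 FPKM in the KO-labelled libraries and 6.00, 7.95 and 6.88 FPKM in WT. Gabpb1, a subunit of the ETS factor GABP, had 6.77, 7.85 and 6.46 FPKM in the KO-labelled libraries and 7.76, 7.98 and 7.11 FPKM in WT. The groups overlapped in both genes.

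Proteins of the cytosolic ribosome and of the respiratory chain are also encoded by short genes, with median transcripts of 786 and 758 nt, and were high in WT 3. All 76 cytosolic ribosomal protein genes had a difference below 0 (median -0.33), and 56 did without WT 3 (median -0.04). Of 77 nuclear genes for respiratory chain and ATP synthase subunits, 76 were below 0 (median -0.42), and 70 without WT 3 (median -0.10). Ndufs1, a subunit of complex I with iron-sulfur clusters, had 43.9, 42.3 and 49.7 FPKM in the KO-labelled libraries, against 57.0, 54.3 and 82.0 FPKM in WT, without overlap. The excess in WT 3 had a median of 0.91 over the cytosolic and 1.02 over the respiratory chain genes, beside 0.82 over the mitochondrial ribosomal protein genes and 0.07 over all tested genes.

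**Figure D5:**
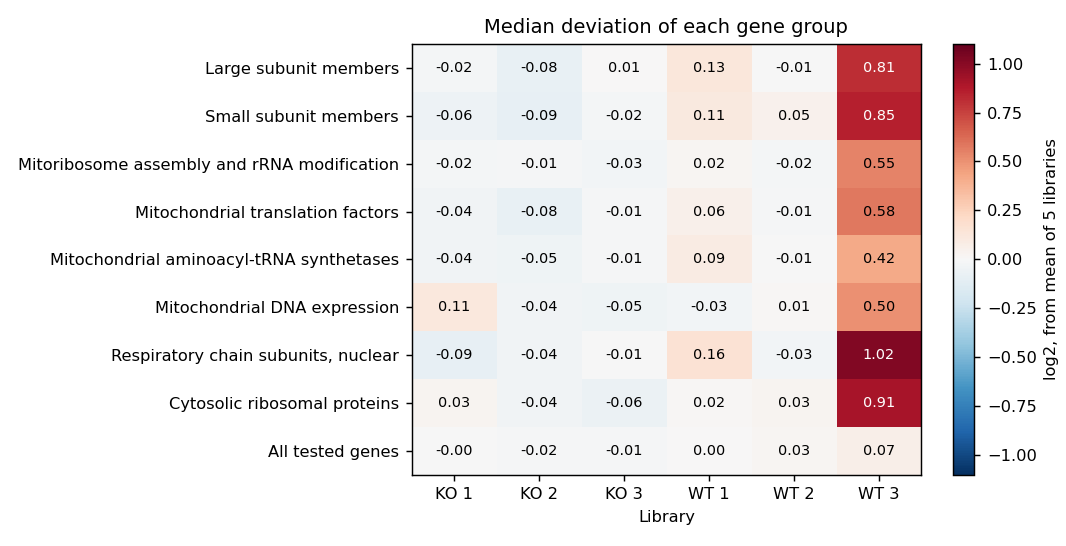
Median deviation of each gene group in each library from the gene's mean over the 5 libraries other than WT 3 (log2 of FPKM + 1; red higher, blue lower). The WT 3 column runs from 0.42 to 1.02 in the 8 gene groups shown, against 0.07 for all tested genes, and in the other columns no group exceeds 0.16.

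The outside genes whose levels followed the members' mean most closely over the 6 libraries, by Pearson's r on log2(FPKM + 1), were Pgls, Psmb1, Dbi, Rpl36al and Tomm7, all with WT 3 highest. Pgls, an enzyme of the pentose phosphate pathway, had 64.2, 60.2 and 64.8 FPKM in the KO-labelled libraries, against 72.7, 67.0 and 131 FPKM in WT (r = 0.999). Over the 6 libraries, 1096 outside genes had an r above 0.95 and 69 of the 78 members an r above 0.9. These values describe 6 libraries and carry no test.

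Adipocyte markers were lower as well, with 18 of 20 below 0, a median of -0.35 and of -0.26 without WT 3. The lipid droplet protein gene Cidec had 1810, 1743 and 1958 FPKM in the KO-labelled libraries, against 2534, 2280 and 2974 FPKM in WT, without overlap. Macrophage markers had a median of -0.38 over 12 genes (11 below 0). Endothelial markers had a median of 0.09 over 10 genes (4 below 0), and -0.25 without WT 3 (10 below 0). Multiciliated markers had a median of 1.68 over 16 genes and epithelial markers of 2.46 over 8, and all of these genes had a difference above 0. Their part in the values of the mitochondrial ribosomal protein genes was not tested.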

How the data were processed

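RNA-seq libraries of epididymal fat were made by the authors with a stranded mRNA kit, per the labels' protocols. The submitters' processing notes name the tools STAR 2.5.4, Cufflinks and Cuffdiff 2.2.1 and the genome build mm10. For the annotation, filters and depth scaling, the steps were not given in the sources used here. The deposited values were read as FPKM, 1 column per library. No header names the unit, which was inferred from those tools and from the values. Under scaling to the mapped total, abundant genes that change shift the values of the rest.

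Of 21853 rows, 24 repeated a symbol and the one with the highest mean was kept. The 12539 genes averaging 1 FPKM or more entered limma 3.58.1 (R 4.3.3) as log2(FPKM + 1), with group as the only term, a mean-variance trend and Benjamini-Hochberg adjustment over all of them. The log2 scale with a pseudocount of 1 understates the change of low genes. Lists were described by counts and medians, with no test. The members and lists were chosen with earlier results of these data known. Named genes were, in each subunit, the 5 with the smallest p in each direction, the 3 with the highest level, up to 6 that separated without overlap with and without WT 3, 9 fixed members, up to 3 genes with the smallest p of each further list, and the 5 outside genes most like the members. Any other gene named was picked with its values in view.

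Transcript and coding lengths, positions and neighbours came from GENCODE vM21 on GRCm38, the assembly of mm10, and start-site sequences from RefSeq on GRCm38.p6. Alternatives were pseudocounts of 0.1 and 0.5, no filter, a filter at 5 FPKM, scaling by median ratios, quantile normalization, no trend, sample weights, a length correction, the replicate number as a block and each library left out. A correction on coding length was added after the data were seen. The fit was tested on simulated data.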

Additional observations from a re-analysis of the deposited data

How the results depend on the processing

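Of the alternatives to the fit with all libraries, 2 changed a count of calls. Sample weights gave WT 1 a weight of 4.02, WT 2 one of 0.472 and WT 3 one of 0.142, so the weighted WT group rested mostly on WT 1. With them, limma called 970 of the 12539 tested genes, 511 of them higher in the libraries labelled KO, and 5 of the 78 members. The 5 were Mrpl17, Mrpl45, Mrps10, Mrps18a and Mrps18b, all lower in the libraries labelled KO. Leaving out 1 library gave between 0 and 482 genes, the 482 without WT 1, and no member. Zfp251 passed with sample weights (0.64, adjusted p 0.0367) and without WT 1 (0.78, adjusted p 0.0409), and ranged from 0.65 to 0.78 over the libraries left out. KO minus WT of the median log2 level of large minus small subunit genes was 0.06, and ranged from -0.036 without WT 1 to 0.21 as libraries were left out; its sign thus depended on 1 library. The median difference ranged from -0.49 to -0.10 over the large subunit and from -0.55 to -0.11 over the small when 1 library was left out, the smallest without WT 3, and was -0.18 for both with sample weights. Median-ratio scaling gave -0.28 over the large and -0.32 over the small subunit, and quantile normalization gave -0.24 and -0.30. With median-ratio scaling, 48.7% of all tested genes and 77 members had a difference below 0, against 59.2% and 77 without it. The number of members below 0 ran from 67 without WT 3 to 78 without WT 2. Among the genes named by the rule, those that turned sign were Mrpl11 (0.073 without WT 3; range -0.41 to 0.073), Mrpl41 (0.017 without WT 3; range -0.52 to 0.017), Mrps6 (-0.042 without WT 2; range -0.042 to 0.34) and the endothelial marker Cdh5 (-0.15 with sample weights and -0.15 without WT 3; range -0.15 to 0.62), each range over the libraries left out. Without WT 3 the sign of 10 members turned in all, 9 of the large subunit and 1 of the small. The cause was not tested. Whether the replicate numbers pair the samples is not given in the sources used here. The deviations of same-numbered libraries correlated at 0.228, -0.200 and 0.220, and those of differently numbered ones at -0.477 to 0.426. With 3 libraries a group these values cannot settle it. The replicate block left 0 calls. It gave 15 members with an unadjusted p under 0.05 in limma, against 8 without the block, all lower in the libraries labelled KO. The shares of all tested genes, in both directions, were 13.7% with the block and 13.6% without it. Of these genes, 1148 of 1714 were higher with the block and 1145 of 1700 without it. A mean of at least 5 FPKM left out Zfp251 and 3 members. Depth is unknown, and 3 libraries a group limit the precision.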
